A study of Homo sapiens with 12 samples.

Results

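SQSTM1, BNIP3, BNIP3L, ULK1, PINK1, ATG7, ATG5, MAP1LC3B, GABARAPL1 and GABARAPL2 were followed as a set of 10 genes of autophagy and mitophagy. They were picked by symbol, as genes used in organelle clearance of red cell precursors, from a count table of 28278 genes. All 10 had enough counts to be among the 15805 genes tested. RNA sequencing was carried out on K562, a human erythroleukaemia line, either unedited (WT) or with HRG1, a heme transporter encoded by SLC48A1, knocked out (KO). Untreated cells of each genotype were compared with cells given 0.75 mM sodium butyrate, a histone deacetylase inhibitor that pushes K562 towards the erythroid lineage. The first dose came 24 h into culture and the second 48 h later, and cells were harvested 6 h after the latter. The series record instead speaks of day 8 of differentiation, which these times do not add up to, and the sources used here do not resolve the difference. This gave 4 groups of 3 libraries. Neither the number of KO clones, the means of editing nor the separateness of the replicate cultures is stated in the sources used here, so p-values measure only the spread between these libraries, which may be technical.

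Autophagy encloses cell contents in a double membrane and delivers them to the lysosome. The ULK1 kinase starts the process, ATG7 and ATG5 belong to the machinery that couples ATG8 proteins (the LC3 and GABARAP families) to the growing membrane, and receptors such as SQSTM1 (p62) bind both the cargo and the ATG8 proteins. Mitophagy is its branch for mitochondria: BNIP3 and BNIP3L (NIX) are receptors on the outer mitochondrial membrane, and PINK1 is the kinase that marks damaged mitochondria for removal. BNIP3L is known for clearing mitochondria from maturing reticulocytes.

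Library totals ran from 19963594 to 30348538 counts. SLC48A1 was at 73.7 ± 8.42 CPM (depth-scaled counts with TMM factors; SD, n = 3) in untreated WT and 5.94 ± 2.74 in untreated KO, and at 67.8 ± 13.9 and 8.03 ± 2.04 in the treated groups. All 9 erythroid markers were detected in each group, with summed levels of 7984 to 17497 CPM in untreated WT, 26180 to 56389 in treated WT, 3327 to 6001 in untreated KO and 4227 to 6116 in treated KO. Markers of other lineages also moved with butyrate and with genotype, and their part in the results below was not tested. The 6 megakaryocyte markers summed to 33.1 to 60.2 CPM in untreated and 117 to 227 CPM in treated WT, and to 15.1 to 55.3 and 80.6 to 118 CPM in KO. Among them PF4 was at 0 counts throughout, ITGA2B rose with butyrate from 36.2 to 137 CPM in WT and from 11.9 to 56.7 CPM in KO, and GP1BA rose between untreated genotypes from 2.86 to 28.1 CPM. The 6 myeloid markers summed to 16.2 to 20.3 CPM in untreated and 23.6 to 36.5 CPM in treated WT, and to 37.2 to 142 and 122.5 to 200.2 CPM in KO. MPO was at 0 in KO. Between untreated genotypes ITGAM rose from 1.04 to 40.8 CPM and CSF3R from 2.00 to 38.2 CPM, while LYZ fell from 14.5 to 5.12 CPM. The 6 lymphoid markers summed to 4.07 to 24.4 CPM over all groups. These single markers were chosen after their values were seen. The ribosomal RNA gene RNA28SN5 took 0.673% to 5.63% of the counts, and within each group its share was highest in the library numbered 1.

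Of the 10 genes, SQSTM1 alone passed the test, with less RNA in treated KO than in treated WT. A gene passed when the p of edgeR's quasi-likelihood test, adjusted across every tested gene, was below 0.05. For butyrate in WT, 0 of 10 passed, against 2.35% of all genes, and 0 had an unadjusted p below 0.05, against 18%. For butyrate in KO, 0 of 10 passed, against 3.4%, and 1, ATG7, had an unadjusted p below 0.05, against 19.8%. For KO against WT in untreated cells 0 of 10 passed, against 22.6%, and 3 had an unadjusted p below 0.05 (BNIP3, GABARAPL1 and SQSTM1), against 34.6%. In treated cells 1 of 10 passed, against 19% of all genes (8.89% lower in KO), and 2 had an unadjusted p below 0.05 (BNIP3 and SQSTM1), against 31.6%. The DESeq2 Wald test called 0 of 10 for butyrate in WT, against 8.06%, and 0 of 10 for butyrate in KO, against 8.6%. It called 2 of 10 between untreated genotypes, against 24.9%, and 1 of 10 between treated genotypes, against 21.6%. With the replicate number as a block, edgeR called 0 of 10 for butyrate in WT, against 8.61%, and 0 of 10 in KO, against 11.7%. Between genotypes it called 2 of 10 in untreated cells (GABARAPL1 and SQSTM1), against 33% of all genes, and 2 of 10 in treated cells (BNIP3 and SQSTM1), against 29.2%. The untreated genotype groups did not overlap for 4 of the 10 genes, against 42.3% of all genes. With 10 genes, these counts are near the shares of all genes and show nothing particular to the set.

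**Figure D1:**
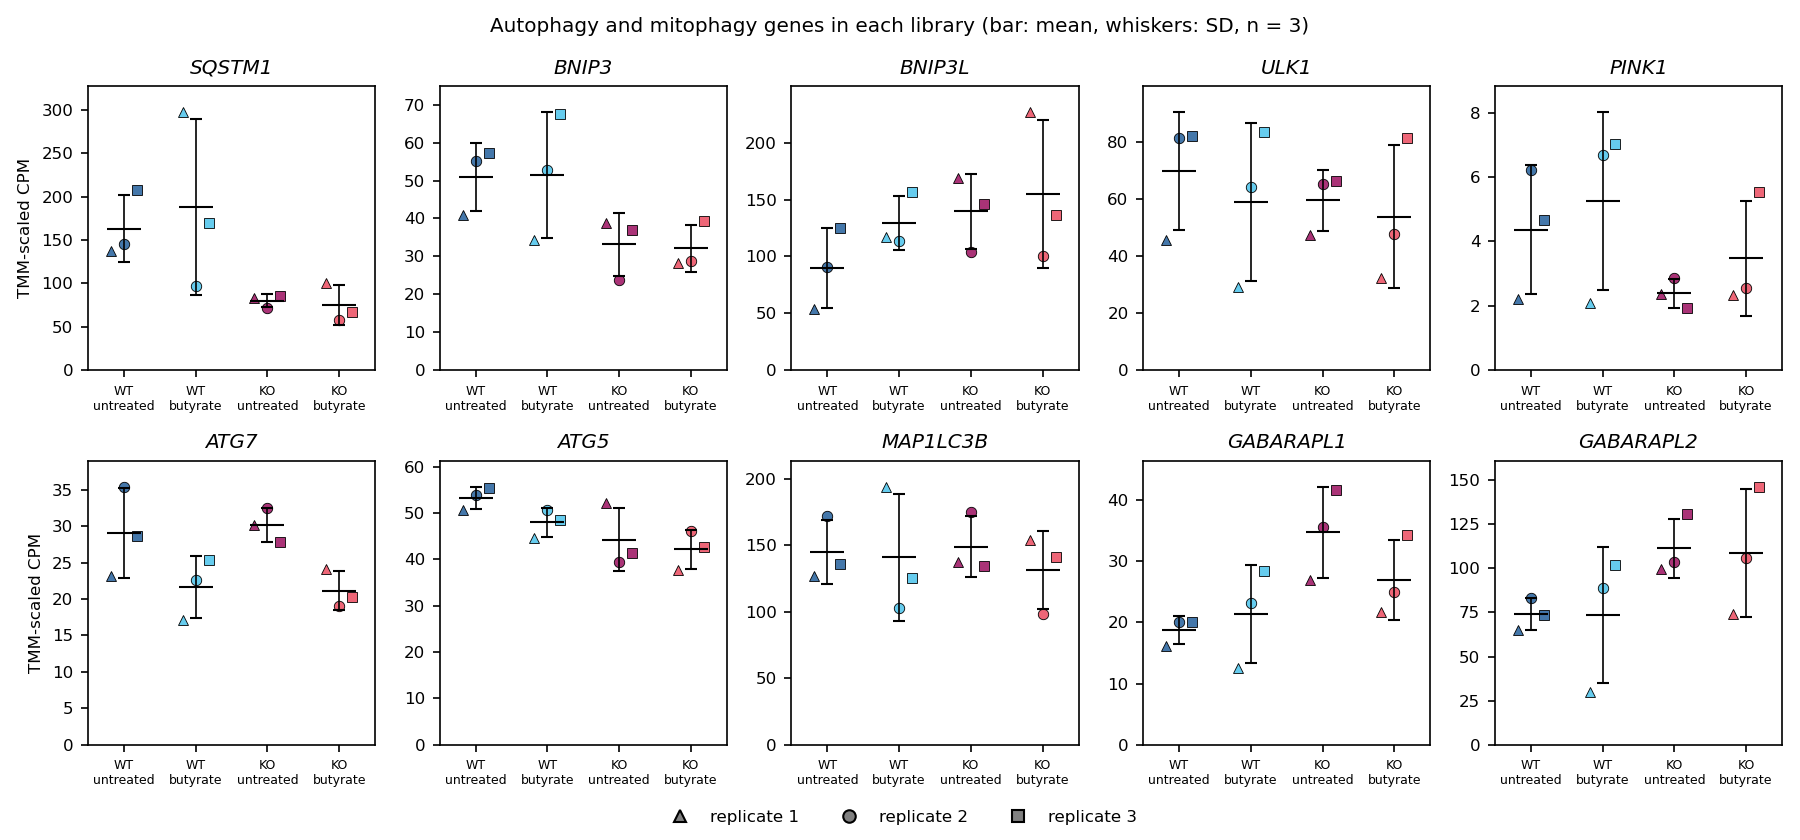
TMM-scaled CPM of the 10 genes on a linear axis from 0, in each library of the 4 groups. Symbols mark the replicate number, horizontal bars the mean and whiskers the SD (n = 3). SQSTM1 in untreated cells lies between 71.4 and 85.8 CPM in KO and between 137 and 207 CPM in WT.

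The upstream sequences of the 4 genes whose untreated genotype groups did not overlap are shown because SQSTM1 and BNIP3 lay lower in KO and GABARAPL1 and GABARAPL2 higher. RefSeq promoter windows (GRCh38.p14, 300 bases, from 250 before to 50 after a start) matched 8 of the 10 genes with 11 windows. The 250 bases before the start are printed 5′ to 3′ on the gene's strand, for SQSTM1 at the most downstream of its starts. They cover chr5:179820655-179820904 (plus strand) for SQSTM1, chr10:131981924-131982173 (minus strand) for BNIP3, chr12:10212627-10212876 (plus strand) for GABARAPL1 and chr16:75566129-75566378 (plus strand) for GABARAPL2. Capitals mark matches to the motifs searched on both strands.
SQSTM1: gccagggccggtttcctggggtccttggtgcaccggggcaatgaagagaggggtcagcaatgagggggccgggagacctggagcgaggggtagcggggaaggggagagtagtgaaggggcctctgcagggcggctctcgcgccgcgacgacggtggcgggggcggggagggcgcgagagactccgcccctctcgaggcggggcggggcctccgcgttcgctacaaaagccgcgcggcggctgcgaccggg
BNIP3: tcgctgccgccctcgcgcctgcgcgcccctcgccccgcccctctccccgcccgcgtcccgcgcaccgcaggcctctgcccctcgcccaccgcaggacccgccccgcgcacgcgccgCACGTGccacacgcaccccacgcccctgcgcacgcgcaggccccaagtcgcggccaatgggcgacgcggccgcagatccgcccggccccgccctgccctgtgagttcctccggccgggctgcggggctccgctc
GABARAPL1: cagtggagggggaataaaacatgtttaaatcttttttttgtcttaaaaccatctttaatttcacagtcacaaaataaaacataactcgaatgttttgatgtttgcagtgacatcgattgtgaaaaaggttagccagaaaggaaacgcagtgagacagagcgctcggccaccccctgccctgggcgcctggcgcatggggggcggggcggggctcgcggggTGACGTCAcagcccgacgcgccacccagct
GABARAPL2: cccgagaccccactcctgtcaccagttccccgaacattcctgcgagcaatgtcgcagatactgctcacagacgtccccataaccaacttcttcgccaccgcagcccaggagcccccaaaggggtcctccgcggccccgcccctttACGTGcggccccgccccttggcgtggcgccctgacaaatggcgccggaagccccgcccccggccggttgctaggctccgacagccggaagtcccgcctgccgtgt
One motif was CACGTG, the E-box bound by TFEB and related factors. Another was ACGTG, the core of the hypoxia response element, which the E-box also holds. TGACNNNGC is an antioxidant response element core and TGACGTCA the cAMP response element. AGATAA is the site of the zinc-finger factor GATA1 and its relatives. The E-box was in 1 of the 11 windows, that of BNIP3, at bases -134 to -129 from the start, and in 7.26% of all 35116 windows. ACGTG was in 3 of the 11, those of BNIP3, GABARAPL2 and ATG5, and in 21.4% of all. TGACGTCA was in 1, that of GABARAPL1 at bases -30 to -23, and in 1.85% of all. This motif was added after the sequences were seen, so its match was known in advance and cannot be weighed against that share. TGACNNNGC was in 1, that of MAP1LC3B, and in 13.3% of all, and AGATAA in 0, and in 10.3% of all. A match describes letters in this window and not a bound site.

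SQSTM1, the cargo receptor that carries ubiquitinated protein into autophagosomes, was lower in KO. Untreated WT libraries held 137, 145 and 207 CPM in replicates 1, 2 and 3, and untreated KO libraries 83.2, 71.4 and 85.8 CPM. Treated WT held 298, 96.7 and 169.5 CPM, and treated KO 100.4, 57.7 and 66.5 CPM. In bulk RNA, fewer cells of a type and less RNA per cell cannot be told apart. Every untreated KO library was below every untreated WT library, while among treated libraries replicate 1 of KO was slightly above replicate 2 of WT. Within each number, the KO library was below the WT library in 3 of 3 pairs in both settings.

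In treated cells SQSTM1 fell by 1.33 on the log2 scale in KO (SE 0.35, 95% interval -2.09 to -0.57, edgeR adjusted p = 0.0191, or 0.00467 once blocked by replicate number). This is a level of 0.398 times WT. In untreated cells the value was -1.02 (SE 0.35, edgeR adjusted p = 0.0518), a level of 0.491 times WT, which passed with the replicate block (adjusted p = 0.0119). The treated call rested on single libraries: it was lost without replicate 1 of treated WT (log2 difference -0.84, adjusted p = 0.0559), without replicate 2 of treated KO (-1.19, 0.0766) or without replicate 3 of treated KO (-1.26, 0.0631), and also when only the treated libraries were fitted (-1.35, 0.0834). Without the libraries numbered 1, SQSTM1 passed both in untreated cells (-1.18, adjusted p = 0.0119) and in treated cells. The 20 tested genes nearest to SQSTM1 on chromosome 5 had a median KO difference of 0.13 in untreated and 0.08 in treated cells, while SQSTM1 was below 0.

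**Figure D2:**
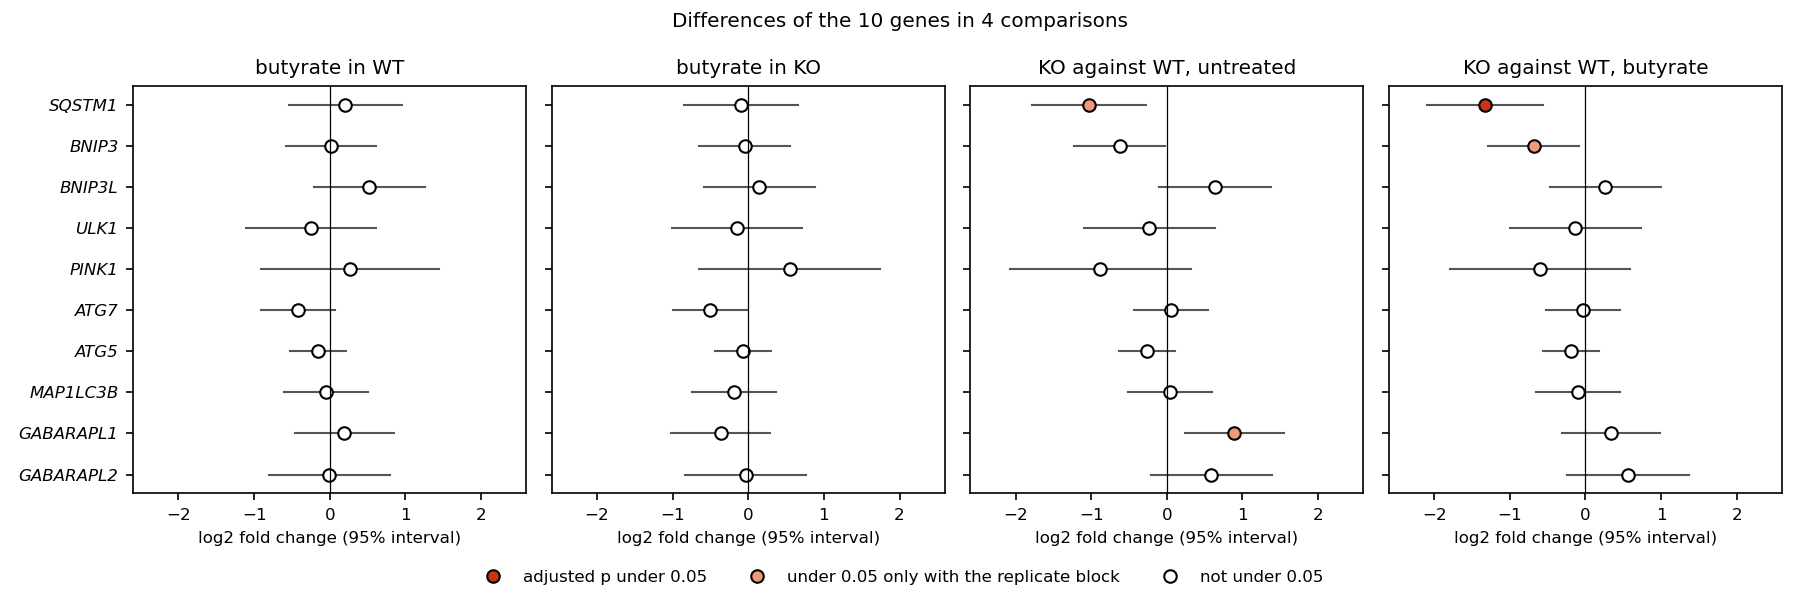
Log2 fold changes of the 10 genes with 95% intervals for butyrate in WT, butyrate in KO and KO against WT without and with butyrate. Filled points passed an adjusted p of 0.05, paler ones only with the replicate block. SQSTM1 in treated cells, at -1.33, is the one point that passed without the block.

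The mitophagy receptors BNIP3 and BNIP3L, which are paralogs, lay on opposite sides of 0 between untreated genotypes. BNIP3 was at 40.8, 55.1 and 57.3 CPM in untreated WT and at 38.9, 23.7 and 36.9 CPM in untreated KO. With butyrate it was at 34.4, 52.7 and 67.5 CPM in WT and 28.3, 28.9 and 39.3 CPM in KO. The untreated groups did not overlap and the treated groups overlapped through replicate 1 of WT. The log2 difference was -0.62 (SE 0.28, edgeR adjusted p = 0.131) in untreated cells and -0.68 (SE 0.28, adjusted p = 0.110) in treated cells. With the replicate block the treated value passed (-0.67, adjusted p = 0.0465) and the untreated value did not (adjusted p = 0.0601). Without the libraries numbered 1 both passed, at -0.90 (adjusted p = 0.0262) and -0.84 (0.0365). The nearest 20 genes on chromosome 10 had medians of -0.49 and -0.28, on the same side as BNIP3, and whether BNIP3 differs from them was not tested.

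BNIP3L was at 53.9, 90.7 and 124.6 CPM in untreated WT and at 169 CPM, 104 CPM and 146 CPM in untreated KO. With butyrate it was at 117, 113 and 156 CPM in WT and at 227, 100.6 and 137 CPM in KO. Replicate 1 of untreated WT was the lowest of the 12 libraries and replicate 1 of treated KO the highest. The log2 difference between genotypes was 0.64 (SE 0.34, edgeR adjusted p = 0.207) in untreated cells and 0.26 (SE 0.34, adjusted p = 0.657) in treated cells. In untreated cells the pairs with the same number differed by 1.65, 0.20 and 0.23 on the log2 CPM scale, and in treated cells by 0.95, -0.17 and -0.19. Without the libraries numbered 1 the treated value of BNIP3L was -0.21. Butyrate in WT gave 0.52 (SE 0.34, 95% interval -0.21 to 1.26, edgeR adjusted p = 0.460), with pairs at 1.12, 0.32 and 0.33. In each of these comparisons the pair numbered 1 differed most, and the other two were alike. In KO the butyrate difference was 0.15 (95% interval -0.58 to 0.88).

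The kinases ULK1 and PINK1 passed in no comparison. ULK1, which starts autophagosome formation, was at 45.8, 81.6 and 82.1 CPM in untreated WT, 29.03, 64.3 and 83.6 CPM in treated WT, 47.3, 65.2 and 66.4 CPM in untreated KO and 32.4, 47.6 and 81.5 CPM in treated KO. In each group its lowest library was the one numbered 1. Its log2 differences ran from -0.24 for butyrate in WT (95% interval -1.10 to 0.62) to -0.13 between the treated genotypes (-0.99 to 0.73). PINK1, the kinase that builds up on damaged mitochondria, had 40 to 221 counts a library. It was at 2.22, 6.22 and 4.67 CPM in untreated WT and 2.35, 2.85 and 1.94 CPM in untreated KO. With butyrate it was at 2.07, 6.70 and 7.02 CPM in WT and 2.34, 2.54 and 5.54 CPM in KO. The untreated genotype difference was -0.88 (SE 0.55, edgeR adjusted p = 0.292), and its 95% interval of -2.08 to 0.32 was the widest of the 10 genes in this comparison. The antisense gene PINK1-AS held 29.1% to 218% as many counts as PINK1. The use of strand in counting is not given in the sources used here, so reads of the overlapping pair cannot be told apart.

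ATG7 and ATG5 act in the coupling of ATG8 proteins to membrane lipid, ATG7 as the E1-like activating enzyme and ATG5 as part of the E3-like complex. ATG7 was at 23.2, 35.4 and 28.6 CPM in untreated WT and 17.1, 22.7 and 25.3 CPM in treated WT, with overlap. In KO it went from 30.2, 32.5 and 27.8 CPM to 24.2, 19.0 and 20.3 CPM with butyrate, with every treated library below every untreated one, as for 11.8% of all genes in that direction. The log2 differences with butyrate were -0.42 in WT (SE 0.23, edgeR adjusted p = 0.355) and -0.51 in KO (SE 0.23, adjusted p = 0.231). All 6 pairs of the same number were lower with butyrate. The genotype differences of ATG7 were 0.05 (95% interval -0.44 to 0.54) in untreated and -0.04 (-0.52 to 0.45) in treated cells. The median gene of chromosome 3, on which ATG7 lies, was higher in KO by 0.45 in both settings. The 20 nearest genes had medians of 0.06 and -0.12.

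ATG5 varied least among the 10 genes, with an SD of 0.17 over the 12 libraries on the log2 CPM scale against 0.28 to 0.69 for the others. It lay between 37.7 and 55.3 CPM in every library. Its log2 differences were -0.15 and -0.07 with butyrate in WT and KO, and -0.27 and -0.19 between genotypes without and with butyrate. The 95% intervals of all 4 lay within 2-fold in either direction.

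The ATG8 proteins sit on the autophagosome membrane and bind the receptors, and only the RNA of their genes was measured here. Between untreated genotypes the log2 difference was 0.04 for MAP1LC3B, 0.89 for GABARAPL1 and 0.59 for GABARAPL2. Whether these genes differ from each other was not tested. MAP1LC3B (LC3B) was at 127, 172 and 136 CPM in untreated WT and 137, 175 and 134 CPM in untreated KO, so that same-numbered libraries lay close together. With butyrate it was at 194, 103 and 125 CPM in WT and 154, 98.1 and 141 CPM in KO. The genotype differences were 0.04 (95% interval -0.52 to 0.59) and -0.10 (-0.66 to 0.45) on the log2 scale. Its near-identical copy MAP1LC3B2 held 0.859% to 2.58% as many counts, so reads shared between the copies leave this value uncertain.

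GABARAPL1 was at 16.1, 20.05 and 20.04 CPM in untreated WT and at 26.9, 35.7 and 41.7 CPM in untreated KO, with no overlap. With butyrate it was at 12.5, 23.1 and 28.4 CPM in WT and 21.8, 24.9 and 34.3 CPM in KO, with overlap. The untreated difference was 0.89 (SE 0.30, edgeR adjusted p = 0.0515), which passed with the replicate block (0.87, adjusted p = 0.00568), and 1 of 6 fits that left out a library passed. In treated cells it was 0.34 (SE 0.30, adjusted p = 0.495). The cAMP response element letters printed above, searched for after the sequence was seen, lie close to its start. Their part in the difference was not tested. The nearest 20 genes on chromosome 12 had medians of 0.13 and -0.17. GABARAPL3, a similar copy of GABARAPL1, held at most 0.839% as many counts.

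GABARAPL2 was at 65.2, 83.3 and 73.4 CPM in untreated WT and 99.7, 104 and 131 CPM in untreated KO, again with no overlap. With butyrate it was at 29.96, 88.6 and 102.1 CPM in WT and 74.0, 106 and 146 CPM in KO. Replicate 1 of treated WT stood below the other 11 libraries. The genotype differences were 0.59 (SE 0.37, edgeR adjusted p = 0.289) in untreated and 0.56 (SE 0.37, adjusted p = 0.335) in treated cells, and each of the 6 same-numbered pairs was higher in KO. The nearest 20 genes on chromosome 16 had medians of 0.34 and 0.48, on the same side. Among the 10 genes, GABARAPL1 and GABARAPL2 had the closest profiles, with a root mean square difference of 0.24 in log2 CPM over the 12 libraries after centring each gene on its mean. The farthest pair was SQSTM1 and GABARAPL2, at 1.18.

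Levels of different genes can be compared only per length, here as CPM per kb of exon (GENCODE v29 basic transcripts) in untreated WT. GABARAPL2 stood at 54.3 ± 6.66 (SD, n = 3), MAP1LC3B at 48.1 ± 7.96 and SQSTM1 at 46.9 ± 11.1, which differed by less than the SD of SQSTM1. BNIP3L stood at 23.1 ± 9.10, BNIP3 at 17.8 ± 3.13, ULK1 at 13.2 ± 3.92, ATG5 at 11.2 ± 0.511, GABARAPL1 at 6.26 ± 0.764 and ATG7 at 5.86 ± 1.24. PINK1 was the lowest at 1.64 ± 0.758. In untreated KO GABARAPL2, at 81.7 ± 12.3, and MAP1LC3B, at 49.3 ± 7.62, were again the highest. BNIP3L at 36.0 ± 8.49 then stood above SQSTM1 at 23.1 ± 2.20, the reverse of WT. GABARAPL1 at 11.6 ± 2.50 lay beside BNIP3 at 11.6 ± 2.87 and ULK1 at 11.2 ± 2.02, within their spread, and above ATG5 at 9.29 ± 1.44 by less than the SD of GABARAPL1.

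Whether butyrate acted differently in KO was tested by the interaction, the butyrate difference in KO minus that in WT. Of the 10 genes 0 passed edgeR's quasi-likelihood test, against 0% of all genes, 0 had an unadjusted p below 0.05, against 4.16%, and DESeq2 called 0, against 0.532%. The values ran from -0.55 for GABARAPL1 (95% interval -1.48 to 0.37) to 0.28 for PINK1 (-1.40 to 1.96). For 4 of the 10 genes the interval lay within 2-fold in either direction. Of the 10 genes, PINK1 had the fewest counts, and the next lowest library value was 242 counts, for GABARAPL1.

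Same-numbered libraries differed in what butyrate did to these genes. In WT, SQSTM1 was higher with butyrate by 1.12 on the log2 CPM scale in the pair numbered 1 and was lower in the other two, at -0.59 and -0.29. GABARAPL2 was at -1.12 in the pair numbered 1 and at 0.09 and 0.48 in the other two. MAP1LC3B was at 0.61, -0.75 and -0.12. The median size of the WT butyrate difference over the 10 genes was 0.53 in the pair numbered 1, 0.26 in the pair numbered 2 and 0.26 in the pair numbered 3, and in KO it was 0.38, 0.29 and 0.22. In WT 3 of 10 genes (BNIP3L, ATG7 and ATG5) had the same sign in all 3 pairs, and in KO 2 of 10 (ATG7 and GABARAPL1). The libraries numbered 1 also carried the highest RNA28SN5 shares, 2.30% to 5.63% against 0.673% to 2.86% in the others. The part of this share in the results was not tested. Without the libraries numbered 1, 0 of 10 genes passed for butyrate in either genotype.

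**Figure D3:**
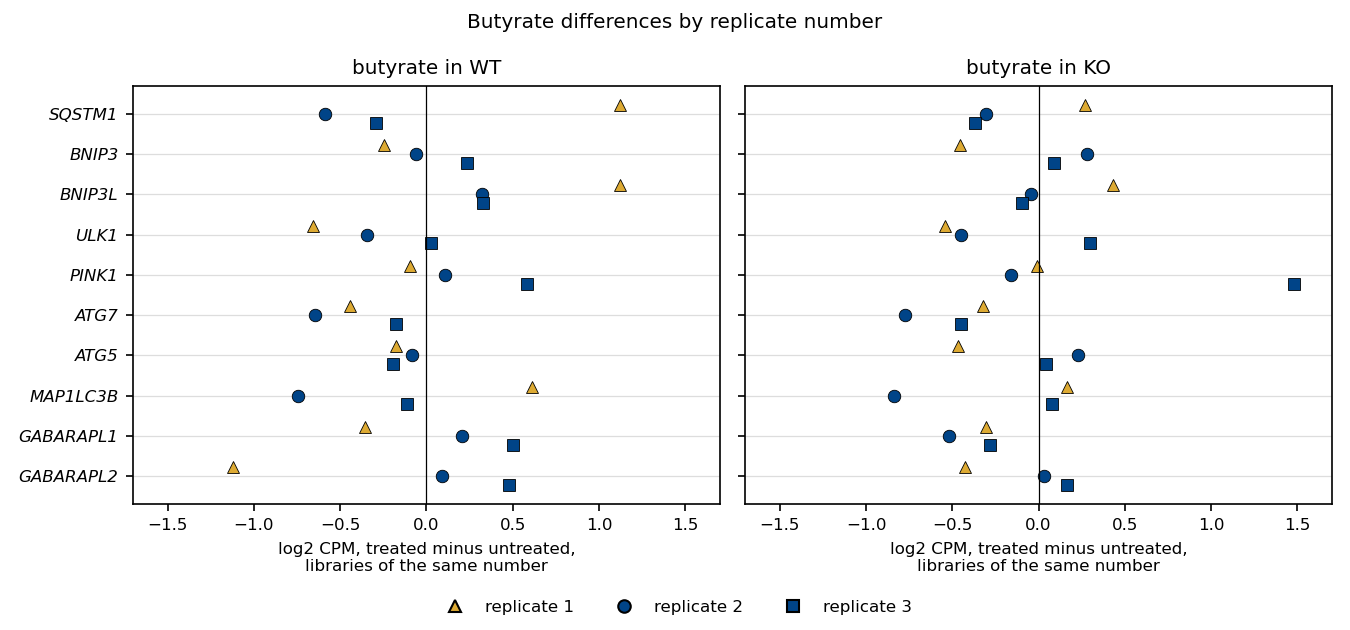
Treated minus untreated log2 CPM (prior count 2) of the 10 genes for libraries of the same replicate number, in WT and in KO. Triangles are the pair numbered 1. In WT that pair lies at 1.12 for SQSTM1 and BNIP3L and at -1.12 for GABARAPL2, apart from the other pairs.

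The rest of the pathway was read through 7 lists of 86 genes, of which 81 were tested. For butyrate, 1 of 81 passed in WT (1.23%, against 2.35% of all genes) and 2 in KO (2.47%, against 3.4%). ATG9B, a lipid scramblase of the growing membrane, rose by 1.85 in WT (SE 0.42, edgeR adjusted p = 0.0414) and by 1.72 in KO (SE 0.42, adjusted p = 0.0424). Only 1 of 6 fits with a library removed kept each call, and the adjusted p reached 0.162 in WT and 0.187 in KO when replicate 2 of the untreated group was removed. SESN3, a sestrin that restrains mTORC1, rose by 3.10 in KO (SE 0.58, edgeR adjusted p = 0.0179). That call held in 3 of 6 such fits, and removing replicate 2 of untreated KO gave an adjusted p of 0.0916. The median of the 81 genes was 0.00 in WT and -0.08 in KO, against 0.02 and 0.00 for all genes. With the replicate block 6 and 8 of the 81 passed, against 8.61% and 11.7% of all genes.

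Between untreated genotypes 21 of 81 pathway genes passed (25.9%, against 22.6% of all genes), 10 higher and 11 lower in KO. With butyrate 15 passed (18.5%, against 19%), 4 higher and 11 lower. With the replicate block 33 and 24 passed, against 33% and 29.2% of all genes. The medians were -0.03 and -0.08, against 0.02 and 0.00 for all genes. Of all 15805 tested genes, 1856 passed as higher and 1718 as lower in untreated KO, and 1604 and 1405 in treated KO. The counts by list below are to be read beside these. In untreated cells the membrane expansion list had 5 of 11 genes lower and 1 higher, the initiation list 2 of 12 higher and 1 lower, the PINK1 pathway list 3 of 11 higher, the fusion list 2 of 10 lower, the receptor list 1 of 12 lower, the ATG8 conjugation list 1 of 11 higher and the regulator list 3 of 14 higher and 2 lower. In treated cells 4 of 11 membrane expansion genes passed, all lower, against 8.89% of all genes lower in KO. The initiation list had 2 of 12 higher and 1 lower, and the regulator list 1 of 14 higher and 3 lower. The PINK1 pathway list had 1 of 11 higher and 1 lower. The fusion list had 1 of 10 lower, the receptor list 1 of 12 lower and the ATG8 conjugation list 0 of 11. The membrane expansion genes include TMEM41B, a lipid scramblase, which fell by 1.05 in untreated and 1.26 in treated KO. They also include WDR45, a PI3P-binding protein, which fell by 1.45 and 1.38. Both were chosen after their values were seen. SESN3 fell by 3.30 in untreated KO (SE 0.59, edgeR adjusted p = 0.00153), a call that held in each of the 6 fits. In treated KO SESN3 fell by 1.64 (SE 0.53, edgeR adjusted p = 0.0492), which held in 1 of 6 fits, and removing replicate 3 of treated WT gave an adjusted p of 0.189. PARL, the mitochondrial protease that cleaves PINK1, rose by 1.24 in treated KO (SE 0.21, edgeR adjusted p = 0.00138), from 24.0 to 56.8 CPM, also in all 6 fits. In untreated KO PARL rose by 1.04 (SE 0.21, edgeR adjusted p = 0.00333), again in all 6 fits.

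Part of these differences lay on chromosome 7. The median of its 730 tested genes was -0.78 in untreated and -0.86 in treated cells, and 37.3% and 38.8% of them passed as lower. All 8 tested pathway genes on chromosome 7 were below 0 in both settings, with medians of -0.76 and -0.82, and 5 passed in each. Of the 11 pathway genes that were lower in each setting, 5 were therefore on this chromosome and 6 elsewhere. Chosen after their values were seen, they are the PI3P reader WIPI2, the receptor TAX1BP1, the SNARE YKT6 and the mTORC1 activator RHEB in both settings, with TECPR1 in untreated and TOMM7 in treated cells. WIPI2 fell by 0.92 in both settings and passed in all 6 fits of each. YKT6 in untreated cells and TAX1BP1 in treated cells also passed in all 6 fits. The remaining calls were less stable. In untreated cells TAX1BP1 and TECPR1 each passed in 1 of 6 fits, and the adjusted p reached 0.122 when replicate 2 of untreated WT was removed (TAX1BP1) and 0.127 when replicate 1 of untreated KO was removed (TECPR1). RHEB passed in 3 of 6, with 0.0795 without replicate 1 of untreated WT. In treated cells TOMM7 and YKT6 passed in 3 of 6 each and RHEB in 4 of 6, with adjusted p of up to 0.0797 and 0.0613 without replicate 2 of treated KO for TOMM7 and RHEB, and 0.0766 without replicate 1 of treated KO for YKT6. None of the 10 genes of the set lies on chromosome 7. The 73 pathway genes elsewhere had medians of 0.03 and 0.01. PARL and the transcription factor MITF, chosen after its value was seen, which rose by 1.57 in untreated KO (SE 0.28, edgeR adjusted p = 0.00149), lie on chromosome 3, where the median gene was higher by 0.45.

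**Figure D4:**
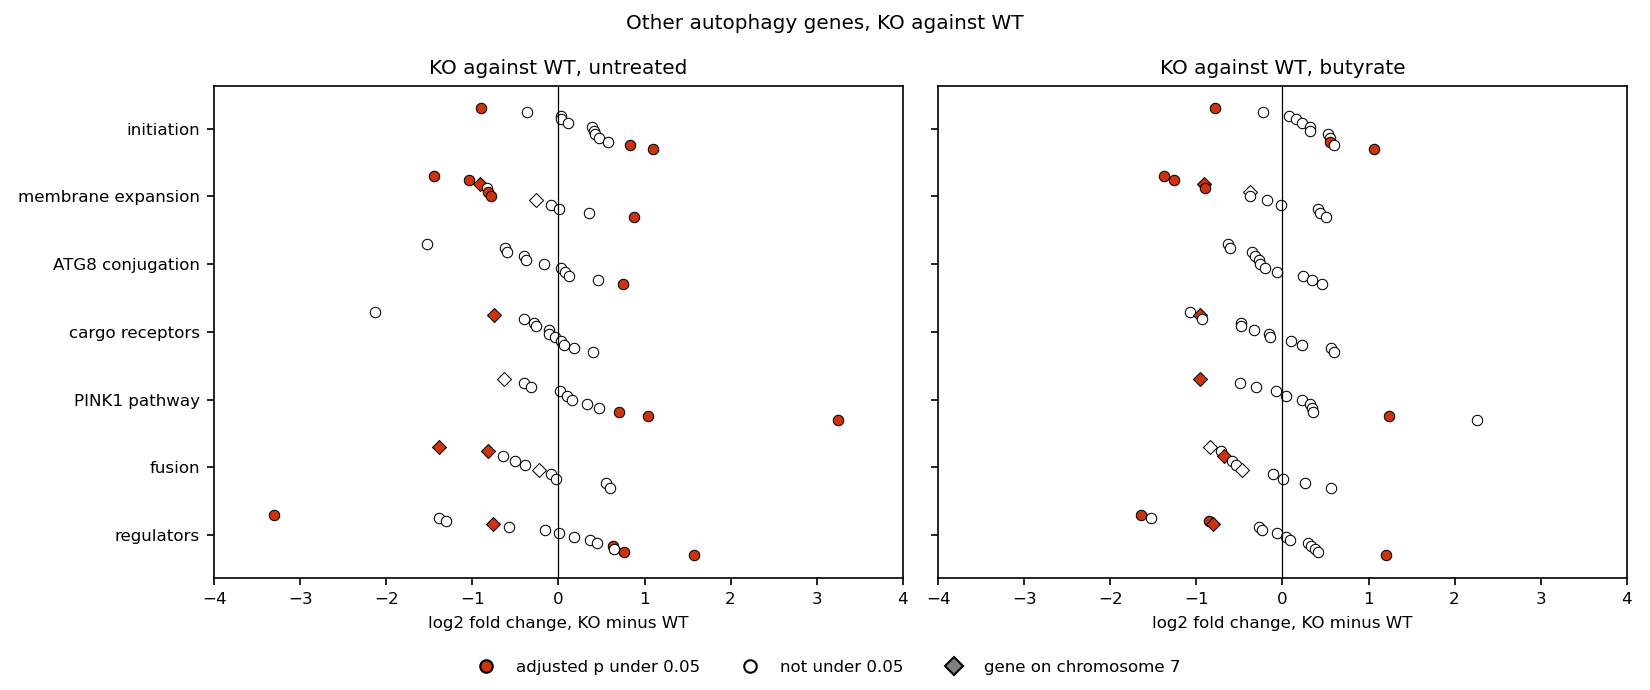
Log2 difference of KO against WT for 81 other autophagy genes in 7 lists, without (left) and with (right) butyrate. Filled points passed an adjusted p of 0.05 and diamonds are genes on chromosome 7. All 8 diamonds lie below 0 in both panels.

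For each of the 10 genes the nearest profile among all tested genes was found by the root mean square difference of centred log2 CPM over the 12 libraries, given as a description. SQSTM1 was closest to MARCHF8 (0.17) and GLCCI1 (0.22), BNIP3 to OGA (0.19) and PHF1 (0.19), and BNIP3L to NAPB (0.24) and ZNF443 (0.28). ULK1 was closest to TRAF3IP2 and BBS4 (0.16 each) and PINK1 to UGDH-AS1 (0.28) and C6orf163 (0.29). ATG7 was closest to FANCD2 and PAX8-AS1 (0.12 each), ATG5 to SMG1P5 (0.11) and SMC5 (0.12), MAP1LC3B to NRF1 and HSD17B12 (0.14 each), GABARAPL1 to ELMOD2 (0.15) and RNF141 (0.17), and GABARAPL2 to ZNF680 (0.14) and C11orf49 (0.17). The median distance to all tested genes lay between 0.60 and 0.92. Such short lists come from a search over all tested genes, and the profiles share the libraries and their depth.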

How the data were processed

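RNA of 12 K562 libraries was sequenced, and the authors deposited whole-number gene counts, per the values in the deposited table. Per the submitters' processing notes, FastQC 0.12.1, STAR 2.7.11b and the hg38 build were used. The counting tool, annotation and use of strand are not given in the sources used here. Counts were tested with edgeR 4.0.16 (R 4.3.3, limma 3.58.1): genes were kept by filterByExpr (minimum count 10), scaled by TMM and fitted with 1 mean per group over all 12 libraries by the quasi-likelihood method. Comparisons used Benjamini-Hochberg adjustment over 15805 genes and a threshold of 0.05. The standard error is the log2 fold change divided by the square root of F. Log2 CPM used a prior count of 2. The fit was also run on simulated counts, drawn independently for each library. Those counts held no shared effect of the replicate number, so they cannot check the fit for it.

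Same-numbered libraries deviated together from their group means in every 2-group comparison (correlations from 0.147 to 0.595), so the replicate number was also fitted as a block. Unlike numbers reached 0.186, 0.123, 0.0692 and, between treated genotypes, 0.343, above the lowest same-number value there of 0.315. Same-numbered libraries differing in genotype and treatment ranged from -0.0030 to 0.355. Alternatives were DESeq2 1.42.0, other scalings and filters, only the groups compared, and left-out libraries. The members and gene lists were chosen with earlier results of these data known. All 10 members are named. Other named pathway genes are those with the 3 largest rises and falls past the threshold in a comparison, and exceptions are marked. Some genes that this rule would name are not reported here. Sequences and positions are from RefSeq (GRCh38.p14), and TGACGTCA was added to the motifs after the sequences were seen.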

Additional observations from a re-analysis of the deposited data

How the results depend on the processing

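SQSTM1 was lower in KO in all alternatives, and its call in treated cells was lost in 3 of 6 fits with a library left out and with only the groups compared. The number of the 10 genes called between untreated genotypes was 0 in the fit reported and 1 with DESeq2 size factors, library size alone, no filter or at least 10 counts in every library, 2 with the replicate block or DESeq2, and 3 with only the groups compared or without the libraries numbered 1. Between treated genotypes it was 1, and 2 with the block or without the libraries numbered 1, and 0 with only the groups compared. Leaving out each library gave 0 to 1 in both. The replicate block changed no other call of the 10 genes.

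Over all genes, butyrate in WT gave 372 calls, 1361 with the replicate block, 63 with only the groups compared, 1884 without the libraries numbered 1 and 1296 with DESeq2. Butyrate in KO gave 537, then 304 with at least 10 counts in every library, 1852 with the block, 2164 without the libraries numbered 1 and 1490 with DESeq2. Between untreated genotypes 3574 became 2334 with at least 10 counts, and between treated genotypes 3009 became 1947, 4612 with the block and 1802 with only the groups compared. The interaction gave 0, then 2 without a filter, 1 with at least 10 counts, 3 with the block, 9 without the libraries numbered 1 and 81 with DESeq2. Leaving out each library gave 43 to 1243, 48 to 833, 2485 to 2844, 2014 to 3477 and 0 to 2. The 81 pathway genes, with alternatives chosen after seeing the data, gave for butyrate in WT 6 calls with the block, 0 with only the groups compared, 7 without the libraries numbered 1 and 3 with DESeq2, and in KO 8, 1, 9 and 6. Between genotypes they gave 33 untreated and 24 treated calls with the block, and 8 treated calls with only the groups compared. Leaving out each library gave 0 to 4, 0 to 3, 12 to 15, 8 to 21 and 0 to 0. The cause of these shifts was not tested.

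Of 390 values over the 10 genes, apart from the fits with 1 library left out, 35 changed sign, none of them called. The largest of these was 0.303 in size in the fit reported. Of 360 values with 1 library left out, 61 changed sign. With the replicate block the opposite sign appeared at BNIP3 (butyrate in WT) -0.011 and GABARAPL2 (the interaction) 0.046. With at least 10 counts in every library the opposite sign appeared at MAP1LC3B (butyrate in WT) 0.011, GABARAPL2 (butyrate in WT) 0.066, BNIP3 (butyrate in KO) 0.033, GABARAPL2 (butyrate in KO) 0.045 and ATG5 (butyrate in KO) 0.0075. With DESeq2 size factors in edgeR the opposite sign appeared at GABARAPL2 (butyrate in WT) 0.0043 and GABARAPL2 (butyrate in KO) 0.0029. With library size alone the opposite sign appeared at GABARAPL2 (butyrate in WT) 0.067, BNIP3 (butyrate in KO) 0.089, GABARAPL2 (butyrate in KO) 0.095, SQSTM1 (butyrate in KO) 0.014, ATG5 (butyrate in KO) 0.064, MAP1LC3B (KO against WT with butyrate) 0.017, ATG7 (KO against WT with butyrate) 0.022, BNIP3 (the interaction) 0.033, MAP1LC3B (the interaction) 0.0013 and GABARAPL2 (the interaction) 0.028. With only the groups compared the opposite sign appeared at GABARAPL2 (butyrate in WT) 0.0032. Without the libraries numbered 1 the opposite sign appeared at GABARAPL2 (butyrate in WT) 0.27, SQSTM1 (butyrate in WT) -0.42, BNIP3L (butyrate in KO) -0.096, BNIP3 (butyrate in KO) 0.15, GABARAPL2 (butyrate in KO) 0.089, ATG5 (butyrate in KO) 0.12, MAP1LC3B (KO against WT without butyrate) -0.012, ATG7 (KO against WT without butyrate) -0.11, BNIP3L (KO against WT with butyrate) -0.21, MAP1LC3B (KO against WT with butyrate) 0.048, BNIP3 (the interaction) 0.063, MAP1LC3B (the interaction) 0.060 and SQSTM1 (the interaction) 0.063. Under the DESeq2 Wald test the opposite sign appeared at GABARAPL2 (butyrate in WT) 0.0033 and GABARAPL2 (butyrate in KO) 0.0024. With 1 library left out at a time, butyrate in WT gave BNIP3 -0.23 to 0.23, ULK1 -0.58 to 0.074, MAP1LC3B -0.35 to 0.14, GABARAPL1 -0.070 to 0.45, GABARAPL2 -0.32 to 0.36, SQSTM1 -0.30 to 0.51 and PINK1 -0.048 to 0.64. For butyrate in KO these fits gave BNIP3L -0.24 to 0.39, BNIP3 -0.23 to 0.079, ULK1 -0.56 to 0.11, GABARAPL2 -0.29 to 0.18, SQSTM1 -0.37 to 0.061 and ATG5 -0.14 to 0.058. Between untreated genotypes they gave MAP1LC3B -0.12 to 0.18 and ATG7 -0.085 to 0.22. Between treated genotypes they gave BNIP3L -0.12 to 0.47, ULK1 -0.57 to 0.18, MAP1LC3B -0.28 to 0.19 and ATG7 -0.19 to 0.070. In the interaction they gave BNIP3 -0.26 to 0.19, ULK1 -0.32 to 0.43, MAP1LC3B -0.32 to 0.18, GABARAPL2 -0.39 to 0.28, SQSTM1 -0.62 to 0.21, ATG7 -0.26 to 0.051 and PINK1 -0.22 to 0.59.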

Other observations

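BNIP3 and BNIP3L are known targets of the hypoxia-inducible factors, and 15 other such targets were read beside them. In untreated and treated KO, BNIP3 was at -0.62 and -0.68 and BNIP3L at 0.64 and 0.26. Neither gene passed in the fit reported. By edgeR's quasi-likelihood test 3 were higher and 2 lower in untreated KO, which is 33.3% of the list against 22.6% of all genes. In treated KO 2 were higher and 3 lower, again 33.3%, against 19%. The list medians were -0.26 and -0.14 on the log2 scale, against 0.02 and 0.00 for all genes. NDRG1, a hypoxia-induced gene of differentiation, fell by 4.19 in untreated and 3.51 in treated KO. VEGFA, the angiogenic growth factor, fell by 2.25 in treated KO, while ADM, which encodes adrenomedullin, rose by 2.06 and the repressor gene BHLHE40 rose by 1.23. The ADM call, at 0.463 to 1.93 CPM, held in 2 of 6 fits with a library left out, and removing replicate 2 of treated WT gave an adjusted p of 0.101. NDRG1 in both settings and VEGFA and BHLHE40 in treated cells passed in 6 of 6. In untreated cells VEGFA, ADM and BHLHE40 also passed, each in the same direction as in treated cells. Those calls held in 4, 1 and 6 of 6 fits.

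Of 8 genes of late erythroid cells, 3 passed as higher with butyrate in WT (37.5%, against 2.35% of all genes). In KO 1 of them, SLC4A1, passed as higher (12.5%, against 3.4%). The rest of the list had no call. Whether this list differs from the 10 autophagy genes was not tested. ALAS2, the first enzyme of heme synthesis in erythroid cells, rose by 3.00 in WT (SE 0.36, edgeR adjusted p = 0.00386), from 24.0 to 193 CPM, and passed in 6 of 6 fits with a library left out. SLC4A1, the band 3 anion exchanger of the red cell membrane, rose by 4.86 in WT (SE 0.77, edgeR adjusted p = 0.0102), from 1.03 to 31.0 CPM, and by 3.40 in KO (SE 0.72, adjusted p = 0.0272), from 1.72 to 18.3 CPM. It passed in 4 of 6 such fits in WT, where removing replicate 1 of untreated WT gave an adjusted p of 0.0599, and in 1 of 6 in KO, where removing replicate 2 of untreated KO gave 0.141.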
